A study of Rattus norvegicus with 54 samples.

Results

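The lung and the right ventricle of the heart were compared within the same rats. Sprague Dawley rats, an outbred laboratory stock, of the litter 4RARA were conceived, born and raised in room air and killed at 6 weeks of age. Of the 54 libraries of the series, 14 were used: 7 of lung and 7 of right ventricle, taken from the 7 animals 4RARA38 to 4RARA44, of which 4 were females (4RARA38 to 4RARA41) and 3 were males. An animal entered only if both its organs had a library, so the eighth lung of the litter was left out. The animals are littermates, and each gave 1 library per organ. The p-values therefore measure the spread among rats of 1 litter and not among litters. The comparison describes what each organ expressed in these young rats, kept at room air throughout. The other room air litter, 6RARA, was used only as an alternative, with 4 pairs. There, 1878 of the 9372 genes called in 4RARA had the other sign, and 613 were called in the opposite direction. Its right ventricles had RNA integrity numbers of 5.8 to 7.4.

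The lung exchanges gas across a sheet of flat type 1 cells, while cuboidal type 2 cells secrete surfactant, a film of lipids and proteins that lowers surface tension, and a dense capillary bed and many resident immune cells fill the wall. The right ventricle pumps blood into that bed. Its muscle cells hold sarcomeres, a calcium store that is emptied and refilled at each beat, and a packed mitochondrial network that burns mostly fatty acids. Both organs are built on endothelium, smooth muscle, fibroblasts and blood, so many genes are shared and differ only in amount. In bulk tissue, fewer cells of a type and less RNA per cell cannot be told apart.

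Each library was a poly(A) library counted per gene, and the depth differed between the organs. Lung libraries held 14316449 to 21869603 counts, and right ventricle libraries 6172411 to 14123386. Mitochondrial reads made up 2.12% to 2.87% of the lung libraries and 28.2% to 49.5% of the right ventricle libraries, per the authors' deposited mapping statistics. Intergenic reads made up 18.4% to 20.7% and 9.28% to 12.3%. The RNA integrity number was 7.4 to 10 in lung and 6.5 to 9.6 in right ventricle. The deposited run sheet puts the libraries in 3 batches, each with its own sequencing pool, and both organs of an animal shared a batch in only 1 animal. Both Y-linked genes examined, Ddx3 and Eif2s3y, were high in all 3 males and near 0 in all 4 females in both organs.

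The tissue labels were checked against defining markers. The 13 measured genes of the cardiac muscle list summed to 31.8 to 70.6 counts per 1000000 (CPM) in lung, which was 0.0301% to 0.0669% of their summed level in right ventricle. The 11 measured genes of the type 2 cell list summed to 341.7 to 514.7 CPM in right ventricle, or 1.02% to 1.53% of lung. Most of that sum was Ctsh, a lysosomal protease that many cell types use. The surfactant protein genes were low in right ventricle but uneven: Sftpc stood at 81.9 CPM in 4RARA38, 19.8 in 4RARA39 and 14.9 in 4RARA43, and at 1.28 to 7.32 in the others. The right ventricle of 4RARA38 was the highest for most genes of lung epithelium, so the fitted difference of such genes rose when it was left out, from 10.40 to 10.93 log2 units for Sftpc and from 9.33 to 11.22 for Nkx2-1. No gene of either marker list changed direction without that animal. The right ventricle of 4RARA39 also stood apart from the other 6, in depth and in many of the genes named below, and its values are given with the heat-shock genes.

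Sequences just before the start of the transcript are shown for genes that the 2 organs express at very different levels. They are the 150 bases upstream of the RefSeq start on the GRCr8 assembly, 5′ to 3′ on the strand of the gene. Capitals mark a TATA box (TATAAA) in the first 3, a CArG box in Myl3, the site that serum response factor is known to bind, and an ETS core (CCGGAA) in Cox4i1. Among respiratory chain genes with that core in this stretch, Cox4i1 had the highest level in right ventricle and was chosen for that. Its site was therefore selected for and not found. Sftpa1 encodes surfactant protein A and Scgb1a1 the secretoglobin of airway club cells. The same stretch of Lyz2 and Tnni3, read with them, held none of the motifs searched and is not shown. Mb encodes myoglobin, Myl3 the ventricular essential myosin light chain and Cox4i1 a subunit of cytochrome c oxidase.
Scgb1a1 (chr1:215409687-215409836, minus strand): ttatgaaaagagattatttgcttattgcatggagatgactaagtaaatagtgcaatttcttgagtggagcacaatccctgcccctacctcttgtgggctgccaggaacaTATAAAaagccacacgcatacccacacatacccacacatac
Sftpa1 (chr16:17042114-17042263, plus strand): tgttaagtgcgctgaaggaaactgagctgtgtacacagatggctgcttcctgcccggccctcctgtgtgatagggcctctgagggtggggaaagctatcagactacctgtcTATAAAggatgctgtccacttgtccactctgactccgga
Mb (chr7:110647743-110647892, minus strand): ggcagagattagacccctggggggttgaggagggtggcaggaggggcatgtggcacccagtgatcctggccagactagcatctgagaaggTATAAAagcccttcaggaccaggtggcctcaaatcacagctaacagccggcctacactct
Myl3 (chr8:119616944-119617093, plus strand): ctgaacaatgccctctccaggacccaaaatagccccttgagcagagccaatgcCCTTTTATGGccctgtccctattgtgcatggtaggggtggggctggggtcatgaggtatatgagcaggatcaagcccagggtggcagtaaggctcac
Cox4i1 (chr19:65630233-65630382, plus strand): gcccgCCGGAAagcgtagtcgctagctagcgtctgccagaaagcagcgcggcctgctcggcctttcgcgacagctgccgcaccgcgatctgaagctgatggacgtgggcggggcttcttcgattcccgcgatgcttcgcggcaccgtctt

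Short motifs were counted on both strands in the 250 bases upstream of the 24206 rat genes with 1 RefSeq promoter each. TATAAA was found in 13.3% of all promoters, in 6.49% of those of the genes tested here, in 10.4% of the genes over 4-fold higher in lung and in 8.46% of those over 4-fold higher in right ventricle. The ETS core was found in 13.9% of all promoters, in 24.2% of the genes tested, in 11.4% of the lung set, in 18.2% of the right ventricle set and in 15 of the 33 nuclear genes of the respiratory chain that had an entry (45.5%). The MEF2 box, the site of the myocyte enhancer factors, was found in 3.11% of all promoters, 1.36% of the genes tested, 1.19% of the lung set, 3.69% of the right ventricle set and 3 of 18 sarcomere genes (Myoz2, Xirp2 and Synpo2l). The CArG box was found in 1.51% of all promoters, 1.15% of the genes tested, 1.87% of the lung set and 1.69% of the right ventricle set. The M-CAT motif (CATTCC) was found in 11.6%, 9.83%, 8.16% and 12.2% in the same order. It was present in 2 of 11 cardiac muscle genes, 4 of 18 sarcomere genes and 3 of 9 type 2 cell genes. These counts describe letters in a window. They do not show binding.

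The 2 organs spent their messages differently. In lung the 10 most counted genes took 7.85% ± 0.49 (SD, n = 7) of all counts and in right ventricle 11.5% ± 0.41, and 50% of the mean counts lay in 900 genes in lung and in 474 genes in right ventricle. In lung, Lyz2, which encodes lysozyme, was the most counted gene, with 2.07% ± 0.18 of all counts, and the surfactant proteins with Scgb1a1 took another 3.83% ± 0.31. In right ventricle the 13 cardiac muscle genes alone took 8.84% ± 0.30, led by Myh6, the alpha myosin heavy chain of the heart, with 1.71% ± 0.18. Per kilobase of transcript, the highest levels in lung were those of Sftpc (17072 CPM per kb), Lyz2 (14582) and Scgb1a1 (9481). The highest in right ventricle were Mb (20196 CPM per kb), Tnni3, the cardiac inhibitory troponin (20060.5), and Myl2, the regulatory light chain (15479). Only Tpt1, the translationally controlled tumour protein, was among the 15 highest genes of both organs.

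Most genes differed between the organs. Of 11507 genes tested with the quasi-likelihood test of edgeR and the animal as a block, 9372 passed an adjusted p of 0.05 (81.4%): 4779 were higher in lung (41.5%) and 4593 were higher in right ventricle (39.9%). With so high a background, the direction alone says little of any one gene. Counts of list members below are to be set against these shares, 41.5% for lung and 39.9% for right ventricle. A test against a 4-fold difference (edgeR glmTreat, adjusted p under 0.05) kept 847 genes for lung (7.36%) and 901 for right ventricle (7.83%). Within library batch 1 (1 lung and 4 right ventricles), 2668 genes were called higher in lung and 2816 in right ventricle, within batch 2 (4 and 2) 3638 and 3945, and within batch 3 (2 and 1) 4081 and 3965, by unpaired edgeR fits chosen after seeing the data, in which a lone library is assumed to vary like the others. In 58.2% of the genes the 7 lung values and the 7 right ventricle values did not overlap. The split depends on how libraries are scaled: with total counts in place of TMM scaling, the median log2 difference over all genes moved from 0.03 to 0.53, and 7034 genes were then higher in lung and 2869 in right ventricle, so that 71.03% of calls were on the side of lung against 50.99%. Differences below are lung minus right ventricle in log2 units with their standard error, so a positive value is higher in lung and 1 unit is a factor of 2. Adjusted p-values are from the edgeR test unless another test is named, and genes within about 0.5 units of 0 are called or ordered only under the main scaling.

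**Figure D1:**
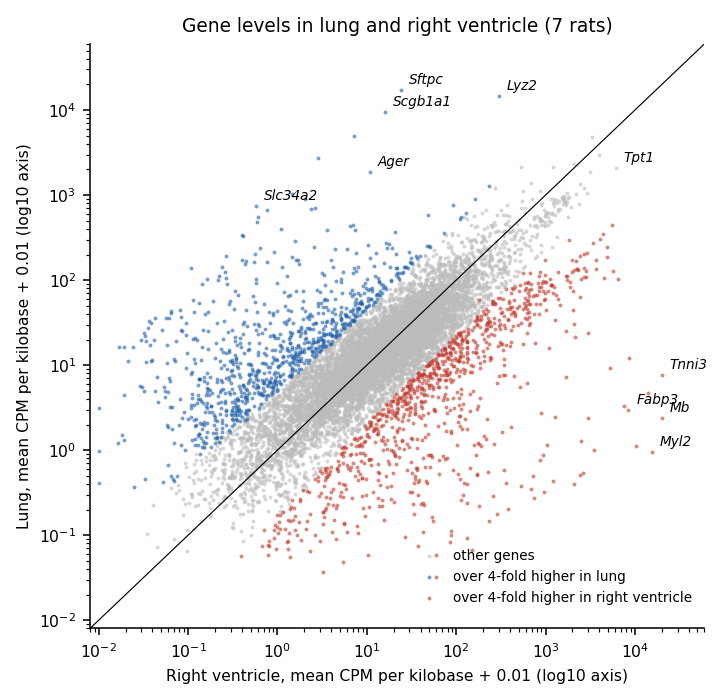
Mean level of each of the 11507 genes in right ventricle (x axis) and lung (y axis), in CPM per kilobase with 0.01 added on log10 axes, with genes over 4-fold higher in lung in blue and in right ventricle in red. The cloud follows the diagonal and spreads out on both sides, with Sftpc, Lyz2 and Scgb1a1 at the top and Mb and Tnni3 at the far right.

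The genes that set the lung furthest apart were those of its epithelium. Sftpc, which lies at chr15:52211538-52214480 of rn6 and encodes surfactant protein C, stood at 11752 to 15346 CPM (median 13256) in the 7 lungs and at 1.28 to 81.9 CPM (median 7.32) in the right ventricles, a log2 difference of 10.40 ± 0.83 (adjusted p = 1.6e-06). The lowest lung lay far above the highest right ventricle. Slc34a2, the phosphate transporter of type 2 cells, ranged from 2379 to 2837 CPM in lung and from 0.110 to 9.58 CPM in right ventricle (10.74 ± 0.64, or 11.90 without 4RARA38). Sftpb, Sftpa1, Cldn18 (a tight junction claudin of the alveolus), Pigr (the carrier of secreted antibody) and Sec14l3 were also among the 15 largest differences. So were Gpx2, a glutathione peroxidase of epithelia at 97.3 to 234 CPM (median 138) in lung, and Scnn1g, the gamma subunit of the epithelial sodium channel at 78.6 to 115 CPM (median 100.3), both with at most 0.465 CPM in any right ventricle. Wnt3a, a ligand of the Wnt pathway, and Hhip, an inhibitor of hedgehog signalling, were moderate in lung, at 44.9 and 89.5 CPM in the median, and had at most 0.220 CPM in any right ventricle. The amino acid transporter Slc7a10, the protease Tmprss2, the organic anion transporter Slco1a5 and RGD1563692 completed the list, at medians of 26.5, 86.4, 46.5 and 68.6 CPM in lung and of 0 in right ventricle.

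The genes furthest on the other side were muscle genes. Myl2 stood at 9093 to 10508 CPM (median 10137) in right ventricle and at 0.0891 to 1.61 CPM (median 0.312) in lung (-14.13 ± 0.41, adjusted p = 1.7e-11), and the groups were separate in every animal. Mb, at chr7:118101633-118108864 of rn6, stood at 17114 to 21579 CPM (median 18832) and 0.860 to 4.23 CPM (median 1.74), a difference of -13.15 ± 0.35. Myl3, Ckmt2 and Ckm (mitochondrial and cytosolic creatine kinase of muscle), Myoz2, Actn2, Tnnt2, Mybpc3, Fabp3, Pgam2, Tnni3, Txlnb and Xirp2 completed the list with Myh6, all between -11.36 and -13.37. The lung values of Myh6 ranged from 0.942 to 12.1 CPM, so its difference (-12.01 ± 0.61) carried the widest error of these genes. Reads of the near-identical heavy chains Myh6 and Myh7, and of the actins, may be split by the counting.

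**Figure D2:**
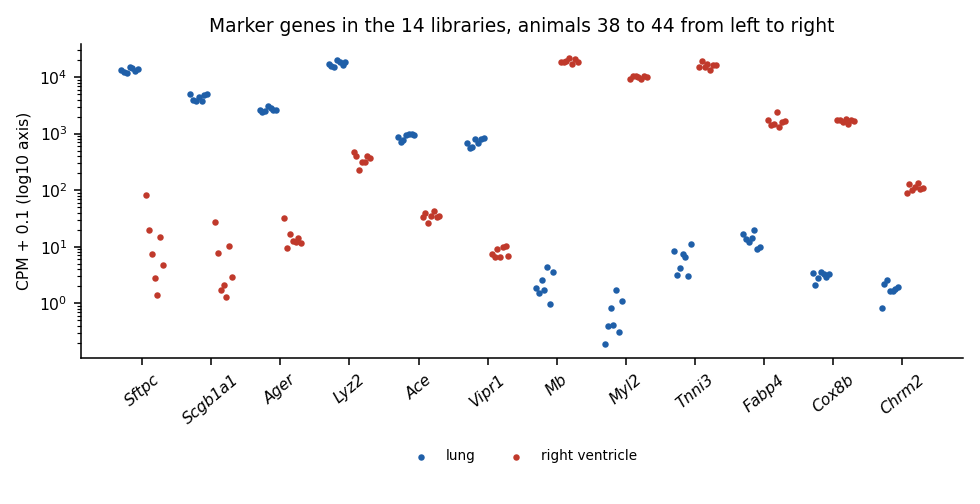
Level of 12 marker genes in the 14 libraries, in CPM on a log10 axis with 0.1 CPM added, with 1 point per animal, lung in blue and right ventricle in red. The lung genes (Sftpc, Scgb1a1, Ager, Lyz2, Ace, Vipr1) and the right ventricle genes (Mb, Myl2, Tnni3, Fabp4, Cox8b, Chrm2) do not overlap between organs, and the points of surfactant genes in right ventricle are spread widest.

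The epithelial lists were higher in lung throughout. All 11 measured type 2 cell genes passed, with a median difference of 9.33 against 0.03 over all genes, and 10 of them passed the 4-fold test. The exception was Ctsh, at 1.65 ± 0.09. All 12 type 1 cell genes passed, with a median of 6.84, from Cldn18 (9.90 ± 0.57, or 11.28 without 4RARA38) down to Cav1, the coat protein of caveolae, at 0.38 ± 0.08. Ager, the receptor for advanced glycation end products that covers type 1 cells, stood at 2450.2 to 3072 CPM (median 2619) in lung and 9.45 to 32.7 CPM (median 12.4) in right ventricle. Cav1 and Clic5 were the shared members: Clic5 reached 431 to 603 CPM (median 532) in right ventricle.

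Genes of airway cells were also found in lung. The 5 measured secretory cell genes and the 6 measured ciliated cell genes all passed on the side of lung. Scgb1a1 was the highest, at 3787 to 5005 CPM (median 4421). Foxj1, the regulator of motile cilia, stood at 25.9 to 70.9 CPM (median 33.5) in lung and at no more than 0.0930 CPM in right ventricle. Of 8 general epithelial genes, among them Cdh1, which encodes E-cadherin (9.39 ± 0.35), and Epcam (8.23 ± 0.31), all passed the 4-fold test. Without 4RARA38 these differences were 10.40 and 8.99. The 7 neuroendocrine genes could not be tested: 4 were listed in the lung table alone, with Calca the highest at 0.409 to 1.16 CPM (median 0.755), and 3 were too low in both organs.

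Endothelium showed 2 faces. Of 13 general endothelial genes, 9 were higher in lung (69.2%, against 41.5% of all genes) and 4 did not pass. In right ventricle 0 were higher (against 39.9%), and the list median was 0.76. Cldn5, the tight junction claudin of vessels, had the largest difference, at 299 to 489.6 CPM (median 409) in lung and 65.3 to 142 CPM (median 96.9) in right ventricle (2.04 ± 0.12). Pecam1, the common surface marker, differed by 0.22 ± 0.09 (adjusted p = 0.0312), a call that was lost without 4RARA38, 4RARA40 or 4RARA41, at 0.17, 0.15 and 0.23. Flt1, Tie1 and Emcn did not pass, and their intervals lay within 0.5 of 0.

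The capillary lists parted by organ. Of 9 lung capillary genes, 8 were higher in lung (88.9%, against 41.5% of all genes). They were led by Hpgd, which inactivates prostaglandins (5.77 ± 0.14), Prx (4.16 ± 0.10) and Tmem100 (3.90 ± 0.09). Car4, a carbonic anhydrase on the vessel surface, stood at 86.6 to 115 CPM (median 101) in lung and 92.5 to 139 CPM (median 108) in right ventricle and did not pass (-0.17 ± 0.08, adjusted p = 0.0754). All 7 heart capillary genes were higher in right ventricle, with a median of -5.85. Fabp4, a fatty acid carrier, stood at 1332 to 2378 CPM (median 1628) in right ventricle against 9.18 to 19.9 CPM (median 13.7) in lung (-6.95 ± 0.19), Tcf15, a transcription factor of heart capillaries in mouse, at 31.2 to 46.2 CPM against 0.0779 to 0.421 CPM, and Cd36, the fatty acid translocase, at 706 to 1054 CPM against 59.2 to 76.1 CPM. Cd36 and Fabp4 are also used by macrophages and fat cells, which these libraries do not separate.

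Stromal genes were mixed. Of 11 fibroblast genes, 8 were higher in right ventricle (72.7%, against 39.9% of all genes) and 2 in lung (18.2%, against 41.5%). The median was -0.45, a sign that turned positive with total count scaling. Dcn and Lum, small proteoglycans that bind collagen, were the clear cases (-4.42 ± 0.12 and -4.09 ± 0.13), with Dcn at 956 to 1626 CPM (median 1004) against 40.6 to 64.4 CPM (median 50.8). Tcf21, a fibroblast transcription factor, and Fn1, fibronectin, were higher in lung (1.64 ± 0.08 and 1.77 ± 0.13). Of 9 pericyte genes, 5 were higher in right ventricle (55.6%, against 39.9% of all genes) and 4 in lung (44.4%, against 41.5%). The share for lung was thus near that of all genes. Rgs5 and both subunits of the vascular ATP-sensitive potassium channel, Kcnj8 and Abcc9, were over 4-fold higher in right ventricle, with Abcc9 at 465 to 645 CPM (median 498) against 42.2 to 58.7 CPM (median 49.01), whereas the calcium entry channel Trpc6 was higher in lung (2.01 ± 0.15). Whether pericytes or other cells, such as heart muscle, held these RNAs cannot be told from bulk tissue. Of 10 smooth muscle genes, 6 were higher in lung (60%, against 41.5% of all genes) and 3 in right ventricle (30%, against 39.9%). Among the 6 were Cnn1, calponin (2.47 ± 0.16), and Mylk, myosin light chain kinase (1.80 ± 0.07). Acta2, smooth muscle actin, did not pass (-0.17 ± 0.08), though it did without 4RARA38 or 4RARA43, at -0.21 in both cases.

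Among smaller lists, the epicardial genes Wt1 and Tbx18 were higher in right ventricle (-4.04 ± 0.17 and -2.90 ± 0.22). The mesothelial gene Msln was higher in lung (2.81 ± 0.76) with a wide spread in right ventricle, 0.0892 to 40.7 CPM. Of 6 Schwann cell genes, 3 were higher in right ventricle, including Sox10 (-5.36 ± 0.24), and Mbp was higher in lung. In the lymphatic list, Prox1 was higher in right ventricle (-4.26 ± 0.14) and Lyve1 in lung (2.09 ± 0.09), and both are also expressed by other cell types. Of 2 measured fat cell genes, Cidec had 0 counts in all 7 right ventricles and 3.87 to 7.62 CPM in lung, and Cfd was higher in right ventricle, at 8.35 to 14.0 CPM against 4.08 to 7.28 CPM.

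Immune genes were mostly higher in lung, though not for all cell types. All 17 T and NK cell genes passed on the side of lung, against 41.5% of all genes, with a median of 1.68. Gzma and Prf1, which encode a granzyme and perforin, passed the 4-fold test. Of 8 B cell genes, 7 passed the 4-fold test; Pou2af1, a B cell coactivator, stood at 17.1 to 24.2 CPM against 0.682 to 1.09 CPM. Of 10 neutrophil genes, 9 passed the 4-fold test in lung, S100a8 and S100a9 among them, and Ncf1 was higher in right ventricle (-0.95 ± 0.09). All 8 class II antigen presentation genes were higher in lung, with a median of 2.05; Cd74, the invariant chain, stood at 1221 to 1438 CPM (median 1329) and 535 to 749.5 CPM (median 683).

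Macrophage genes divided. Lyz2 stood at 15279 to 19846 CPM (median 16936) in lung and 228 to 471 CPM (median 375) in right ventricle (5.63 ± 0.15); type 2 cells of rodents also express it. Abcg1, a cholesterol exporter of alveolar macrophages, was over 4-fold higher in lung (3.28 ± 0.09), as was Cd68 (2.40 ± 0.12). Of the 4 measured genes of the alveolar macrophage list, 3 were higher in lung and 1 did not pass. Only Abcg1 among them passed the 4-fold test, and the list median was 1.42. Of 5 genes of tissue-resident macrophages, Cd163, Folr2 and F13a1 were over 4-fold higher in right ventricle (-2.85 ± 0.14, -2.47 ± 0.12 and -2.90 ± 0.11), while Mrc1 and Siglec1 were higher in lung (2.02 ± 0.10 and 0.73 ± 0.16). The 3 chains of complement C1q, C1qa, C1qb and C1qc, were higher in right ventricle (-1.18, -1.07 and -1.22). Of 9 mast cell genes, 5 did not pass. The red cell genes overlapped in all 6 cases, with Hbb at 516 to 1832 CPM (median 1029.9) in lung and 979 to 4006 CPM (median 1627) in right ventricle (-0.75 ± 0.27, adjusted p = 0.0283), and 4 of the 6 did not pass. The call of Hbb was lost without any one of 4RARA40, 4RARA41, 4RARA43 and 4RARA44, with differences of -0.63, -0.62, -0.58 and -0.72.

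A few genes of other tissues were counted. Ttr, the thyroid hormone carrier made by liver and choroid plexus, stood at 14.1 to 23.98 CPM (median 20.5) in right ventricle and 0.0445 to 2.95 CPM (median 0.584) in lung. Alb, the albumin of liver, ranged from 0.554 to 44.97 CPM in lung and from 0.167 to 4.55 CPM in right ventricle. In the 4 atrial genes, the lungs of 4RARA38, 4RARA41 and 4RARA44 summed to 13.9, 12.5 and 14.0 CPM and the other lungs to 1.11 to 3.66 CPM. Rat pulmonary veins are known to carry a sleeve of atrial muscle; its part in these values was not tested. Myl7, the atrial light chain, did not pass (-1.84 ± 0.92, adjusted p = 0.0914), but did without 4RARA41 (-2.44). Acta1, the skeletal actin that heart muscle also makes, stood at 1363 to 2435 CPM (median 1794) in right ventricle.

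**Figure D3:**
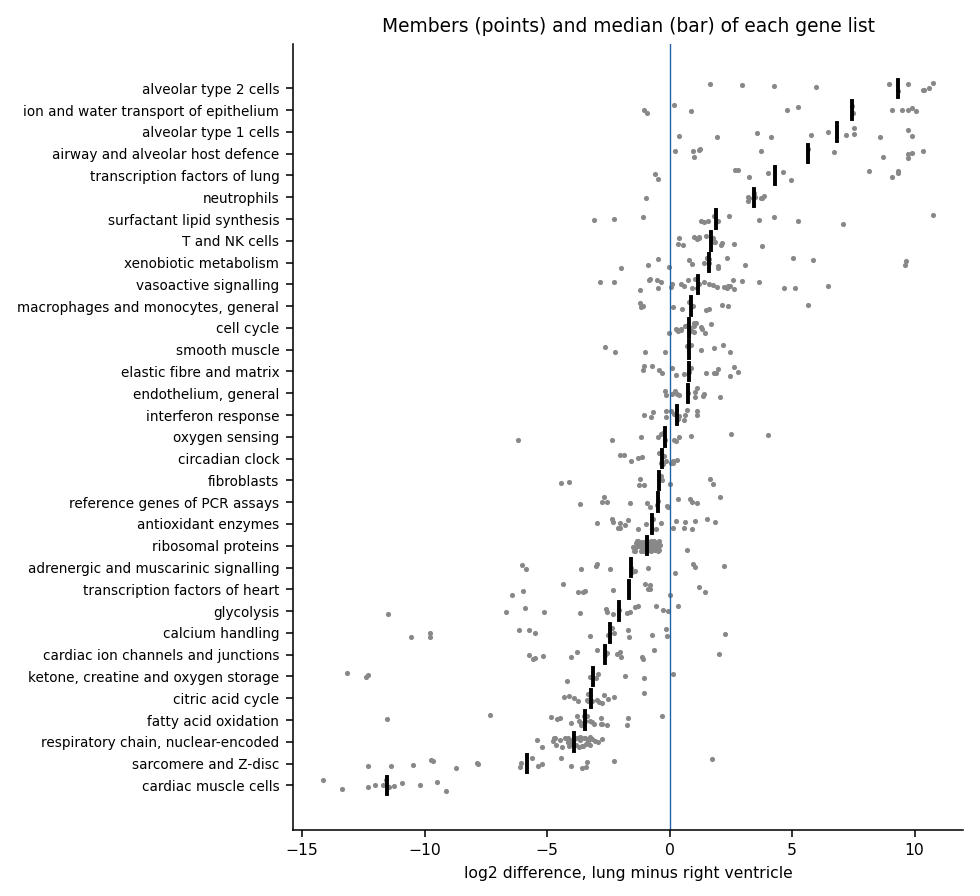
Log2 difference, lung minus right ventricle, of every measured member (grey points) and the median (black bar) of the 33 gene lists with at least 10 measured members, ordered by median, with a vertical line at the median over all genes, 0.03. Alveolar cell lists lie at the upper right, cardiac muscle lists at the lower left, and interferon, oxygen-sensing and circadian genes near the line.

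Transcription factors followed the organs. Of 12 measured factors of lung development, 10 were over 4-fold higher in lung. Nkx2-1, which specifies lung epithelium, stood at 153 to 231 CPM (median 216) in lung and 0 to 1.58 CPM (median 0.0892) in right ventricle. Tbx4, a factor of lung mesenchyme, stood at 113 to 146 CPM (median 134) and 0 to 0.558 CPM (median 0.110), and Foxa2 at 49.8 to 73.8 CPM and 0 to 0.465 CPM. Foxp2 and Sox9 were higher in right ventricle under TMM scaling (-0.58 ± 0.10 and -0.49 ± 0.16). Of 14 factors of heart, 11 were higher in right ventricle, 2 in lung and 1 did not pass. Gata4 stood at 94.6 to 143 CPM (median 129) in right ventricle and 0.935 to 2.81 CPM (median 1.94) in lung (-6.00 ± 0.19). Esrrg and Ppargc1a, regulators of mitochondrial genes, differed by -6.41 ± 0.16 and -3.52 ± 0.17, and Myocd, the partner of serum response factor, by -3.72 ± 0.11. Tbx5, a factor of both heart and lung development, stood at 13.8 to 18.6 CPM (median 16.8) in lung and 12.6 to 19.0 CPM (median 16.9) in right ventricle, and its interval was -0.15 to 0.21. Irx3 and Irx5 were higher in lung (1.44 ± 0.24 and 1.19 ± 0.13).

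Contraction and calcium handling were right ventricle programmes with a few exceptions. Of 20 sarcomere and Z-disc genes, 19 were higher in right ventricle, with a median of -5.84. Mybpc2, the fast skeletal form of myosin binding protein C, was higher in lung at 7.53 to 11.6 CPM against 2.09 to 6.66 CPM. Tpm1, alpha-tropomyosin, was present in both organs at 287 to 339 CPM (median 319) in lung and 10718 to 16824 CPM (median 12547) in right ventricle. Of 16 calcium genes, 14 were higher in right ventricle. Atp2a2, the pump that refills the calcium store, stood at 10278 to 14949 CPM (median 10966) against 236 to 299 CPM (median 244) (-5.48 ± 0.10), and Casq2 and Hrc, which hold calcium inside the store, were near absent from lung (-10.56 ± 0.21 and -9.79 ± 0.17). Slc8a1, the sodium-calcium exchanger, and Cacna1c, the pore of the cardiac calcium channel, differed less (-3.26 ± 0.07 and -2.27 ± 0.11). Camk2b was higher in lung (2.28 ± 0.19).

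Electrical genes showed the same order. Of 17 channel and junction genes, 16 were higher in right ventricle and Gja5, the connexin of arterial endothelium and conduction fibres, was higher in lung (2.03 ± 0.11). Gja1, the main connexin of heart muscle, stood at 374 to 779.9 CPM (median 641) in right ventricle and 124 to 226 CPM (median 144) in lung, a difference of -2.01 ± 0.13. Kcnk3, a potassium channel of pulmonary artery muscle in which mutations are known in pulmonary hypertension, was also higher in right ventricle (-2.96 ± 0.11).

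Genes of oxidative metabolism were higher in right ventricle. All 40 measured nuclear genes of the respiratory chain were over 4-fold higher in right ventricle, against a background of 7.83%, with a median of -3.89 and a range from -5.41 to -2.74. Atp5b, the catalytic subunit of ATP synthase, stood at 8799 to 10313 CPM (median 10095) in right ventricle and 704 to 825 CPM (median 788) in lung, and Cox7b at 1799.8 to 4164 CPM (median 2441) and 50.1 to 66.8 CPM (median 56.6). All 16 citric acid cycle genes were higher in right ventricle, 15 of them over 4-fold, and Suclg2 was the smallest (-1.03 ± 0.08). All 25 genes of fatty acid oxidation were higher, from Fabp3, the heart fatty acid carrier (-11.52 ± 0.37), to Cpt1a (-0.31 ± 0.10), whose direction changed with total count scaling. Cpt1b, the muscle form of the enzyme that admits fatty acids to mitochondria, stood at 556 to 722 CPM (median 601) against 2.79 to 4.71 CPM (median 3.74). Ppara, a nuclear receptor that drives these genes, differed by -4.61 ± 0.12.

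Sugar genes followed with smaller differences, while the list of ketone, creatine and oxygen storage genes had a median of -3.11. Of 17 glycolysis genes, 15 were higher in right ventricle and Pfkl was higher in lung (0.33 ± 0.10), with a list median of -2.06. Gapdh stood at 2908 to 4977 CPM (median 4421) against 274 to 405 CPM (median 346). Oxct1, which lets tissues burn ketone bodies, stood at 2101 to 2964 CPM (median 2433) and 115 to 145 CPM (median 137) (-4.20 ± 0.10). Gatm, which makes the precursor of creatine, did not pass (0.14 ± 0.09), but did without 4RARA42 (0.23). Lipid synthesis went the other way: Fasn, fatty acid synthase, stood at 492 to 953 CPM (median 637) in lung and 13.5 to 22.8 CPM (median 17.4) in right ventricle (5.25 ± 0.09), and Scd, Scd2, Acly, Lpcat1 and Slc34a2 were also over 4-fold higher in lung. Of the 14 genes of this list, 3 were higher in right ventricle: Pcyt1a, Me1 and Lpin1 (-1.08 ± 0.07, -2.29 ± 0.07 and -3.10 ± 0.09).

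Where a protein exists in several forms, the ratio of a pair within a library does not depend on scaling. The form named first was taken as the one of heart or skeletal muscle in most pairs, but Cox4i1 and Ndufa4 are the general forms of their subunits, and Idh2 and Mdh2 the mitochondrial forms of enzymes whose second form is cytosolic. In 31 pairs the log2 ratio of counts per kilobase was compared between the organs of each animal. In 30 pairs the first form took a larger share in right ventricle in 7 of 7 animals, and in 1 pair a smaller share in 7 of 7. Each pair reached the smallest p that the exact sign-flip permutation test over 7 animals allows, 0.0156, two-sided, and 0.0156 after adjustment over the 31 pairs. The median shift was 6.31 log2 units. In 18 pairs every lung held more of the second form and every right ventricle more of the first.

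Cytochrome c oxidase gave clear cases. The log2 ratio of Cox6a2 to Cox6a1 was -6.90 ± 0.81 (SD, n = 7) in lung and 2.19 ± 0.13 in right ventricle, and that of Cox8b to Cox8a -4.19 ± 0.20 and 3.38 ± 0.35. Lactate dehydrogenase moved from the Ldha form in lung, where the ratio of Ldhb to Ldha was -3.33 ± 0.18, to the Ldhb form in right ventricle (1.27 ± 0.19). The glucose transporter moved from Slc2a1 to the insulin-responsive Slc2a4, with ratios of -4.41 ± 0.32 and 4.34 ± 0.28, and glycogen phosphorylase from Pygl to Pygm. In acetyl-CoA carboxylase the ratio of Acacb, the form on mitochondria, to Acaca, the form of lipid synthesis, was -1.16 ± 0.21 and 3.62 ± 0.27.

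In 3 pairs the second form led in both organs, among them Hk1 over Hk2 and Eef1a1 over Eef1a2. For Eef1a2 and Eef1a1 the shift was nonetheless 11.96 ± 1.01, from a lung ratio of -12.78 to -0.82. The pair that moved the other way was Mdh2, mitochondrial malate dehydrogenase, against the cytosolic Mdh1, with ratios of 0.54 ± 0.12 in lung and -0.28 ± 0.16 in right ventricle. Both genes were higher in right ventricle, Mdh2 by -3.72 ± 0.10 and Mdh1 by -4.54 ± 0.09 when signed as lung minus right ventricle. The non-muscle myosin Myh9 had low values, 8.47 to 12.5 CPM in lung and 1.95 to 3.58 CPM in right ventricle, so the ratio of Myh6 to Myh9 rests on a low denominator.

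**Figure D4:**
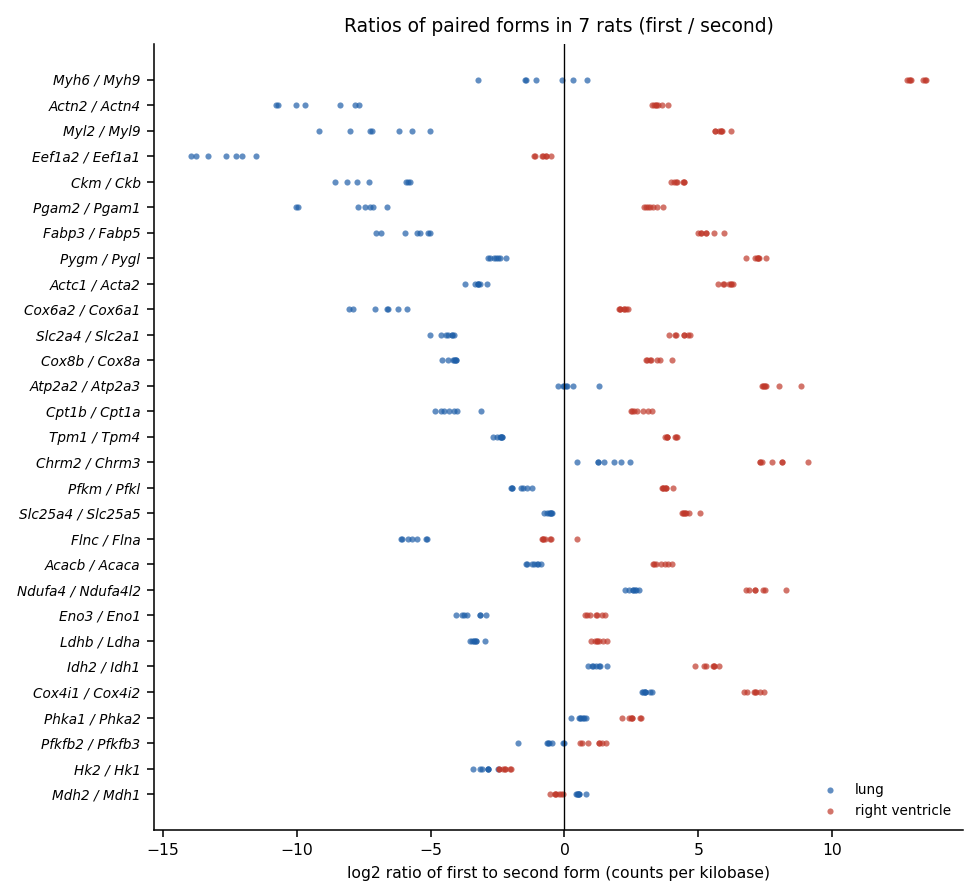
Log2 ratio of the first form to the second, in counts per kilobase, for 29 of the pairs, with 1 point per animal, lung in blue and right ventricle in red, and a line at 0 where both forms are equal. The red points lie to the right of the blue points in all pairs drawn but Mdh2 and Mdh1, where they lie to the left.

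Host defence and transport genes of the airway lining were lung genes. Of 13 host defence genes, 12 were higher in lung, with a median of 5.63, and Slpi did not pass. Of 13 genes of epithelial ion and water transport, 10 were higher in lung and 2 in right ventricle. Aqp5, the water channel of type 1 cells, stood at 422 to 519 CPM (median 458) in lung and Cftr at 41.9 to 54.02 CPM (median 44.3), while Aqp1, the water channel of capillaries and red cells, stood at 513 to 614 CPM (median 571) in lung and 858 to 1529 CPM (median 1164) in right ventricle (-1.05 ± 0.12). Among 15 interferon response genes, 6 were higher in lung (40%, against 41.5% of all genes) and 3 in right ventricle (20%, against 39.9%). The other 6 did not pass. The list median of 0.29 became -1.43 in litter 6RARA and -0.06 within batch 1.

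Vasoactive genes leaned to lung, with 22 of 32 higher there (68.8%, against 41.5% of all genes). In right ventricle 7 were higher (21.9%, against 39.9%), and 3 did not pass. Ace, which makes angiotensin II and breaks down bradykinin, stood at 718 to 993 CPM (median 933) in lung and 25.7 to 43.2 CPM (median 34.5) in right ventricle (4.68 ± 0.10). Vipr1, a receptor for the vasodilator VIP, stood at 552 to 824 CPM (median 684) and 6.45 to 10.3 CPM (median 7.35) (6.45 ± 0.13). Edn1 (endothelin), both endothelin receptors Ednra and Ednrb, the serotonin transporter Slc6a4 (5.12 ± 0.14) and Pde5a, the target of sildenafil (3.64 ± 0.08), were higher in lung. Nos3, endothelial nitric oxide synthase, was the only gene of the list over 4-fold higher in right ventricle: 113 to 243 CPM (median 205) in right ventricle and 20.2 to 29.9 CPM (median 28.5) in lung (-2.83 ± 0.08, adjusted p = 1.1e-12), with no overlap, although most general endothelial genes were higher in lung. The nitric oxide receptor subunits Gucy1a3 and Gucy1b3, were higher in lung (1.21 ± 0.09 and 1.77 ± 0.10).

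Autonomic genes also divided. Adrb1, the main beta-receptor of heart muscle, was higher in lung, at 11.4 to 27.8 CPM (median 25.1) against 7.74 to 13.9 CPM (median 10.6) (0.94 ± 0.12). The 3 alpha-1 receptors Adra1a, Adra1b and Adra1d and the muscarinic receptor Chrm2 were over 4-fold higher in right ventricle, with Chrm2 at 89.6 to 136 CPM (median 108) against 0.713 to 2.49 CPM (median 1.68). Adcy5, a cardiac adenylate cyclase, and Akap6, an anchor of protein kinase A, were likewise higher (-3.62 ± 0.08 and -5.86 ± 0.10).

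Matrix and protective enzymes completed the picture. Of 17 matrix genes, 11 were higher in lung (64.7%, against 41.5% of all genes) and 5 in right ventricle (29.4%, against 39.9%). Eln, elastin, stood at 1449.5 to 2309.7 CPM (median 1771) in lung and 409.8 to 551 CPM (median 452) in right ventricle (1.97 ± 0.12), and its crosslinking enzyme Lox and the basement membrane chains Col4a3 and Col4a4 were over 4-fold higher in lung. Fbn1, fibrillin, did not pass (0.08 ± 0.09). Of 19 genes of xenobiotic metabolism, 15 were higher in lung (78.9%, against 41.5% of all genes). Among them, Cyp2b1 stood at 173 to 438 CPM (median 383) against 0 to 1.95 CPM (median 0.0892). Cyp1a1 stood at 27.7 to 113 CPM (median 47.04) against 0 to 2.43 CPM (median 1.14). Of 22 antioxidant genes, 14 were higher in right ventricle (63.6%, against 39.9% of all genes), including the mitochondrial Prdx3, Txn2 and Txnrd2. In lung 7 were higher (31.8%, against 41.5%), including Prdx6 (1.02 ± 0.08) and Hmox1 (1.83 ± 0.20).

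The oxygen-sensing genes had a pattern of their own. Epas1, the hypoxia-inducible factor of endothelium, stood at 1689.8 to 3004 CPM (median 2515) in lung and 288 to 603 CPM (median 459) in right ventricle (2.49 ± 0.09), whereas Hif1a differed by 0.28 ± 0.06 and Arnt, their partner, by 0.19 ± 0.07, a call that was lost without 4RARA40 (0.16). Egln3, a hydroxylase that marks these factors for destruction and is itself one of their targets, stood at 327 to 446 CPM (median 358) in right ventricle and 3.39 to 7.14 CPM (median 5.12) in lung (-6.20 ± 0.12). Cygb, cytoglobin, was over 4-fold higher in right ventricle (-2.33 ± 0.07), and Arnt2 in lung (4.00 ± 0.18). Vegfa was higher in right ventricle (-0.45 ± 0.12), but not with total count scaling.

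Some genes did not separate the organs. In 2492 of 11507 genes (21.7%) the 95% interval lay within 0.5 of 0. Among the highest of these per kilobase were Sparc, a collagen-binding matrix protein (-0.04 to 0.39, although its difference passed without 4RARA39, at 0.26), Eef2, Ubb, Tmsb10, Txn1, Hspb1, Itm2b (-0.15 to 0.17), Ppia (-0.23 to 0.06) and Serpinh1. Itm2b, a membrane protein of most tissues, stood at 813 to 939 CPM (median 862) in lung and 749 to 1006 CPM (median 886) in right ventricle. These intervals rest on the scaling, since total counts would move them all by about 0.5 units towards lung. Of 16 genes often used as references in PCR assays, 5 were higher in lung (31.25%, against 41.5% of all genes). In right ventricle 9 were higher (56.25%, against 39.9%), and 2, Ppia and Tbp, did not pass. Actb and Gapdh differed in opposite directions, by 2.04 ± 0.10 and -3.65 ± 0.14. Of 71 ribosomal protein genes, 69 were higher in right ventricle (97.2%, against 39.9% of all genes), with a median of -0.94. Rpl3 was higher in lung (0.72 ± 0.08). Reads of ribosomal protein genes may be shared with processed copies. Of 20 cell cycle genes, 17 were higher in lung (85%, against 41.5% of all genes), with a median of 0.80. In the 4 pairs of the other room air litter, 6RARA, the list median was -0.21 and Mki67 was at -0.76. Mki67 stood at 39.1 to 91.5 CPM (median 75.6) in lung and 23.5 to 98.2 CPM (median 30.96) in right ventricle, and its values overlapped.

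Genes listed for 1 organ alone could not be compared, since the authors' filter is not stated in the sources used here. In the right ventricle table alone, 348 genes included Myh7, the beta myosin heavy chain, at 535 to 1326 CPM (median 617), Nppb, the B-type natriuretic peptide, at 61.2 to 199 CPM (median 108), Nkx2-5, the cardiac homeobox factor, at 58.4 to 91.5 CPM (median 77.7), and Kcnj11, the muscle ATP-sensitive potassium channel, at 98.4 to 211 CPM (median 163). Aqp7, a glycerol channel, stood at 163 to 206 CPM (median 187). In the lung table alone, 798 genes included Rab25, an epithelial traffic regulator, at 35.1 to 44.5 CPM (median 42.4), Cldn7 at 37.8 to 58.6 CPM (median 40.1) and Bpifb1, a secreted airway protein, at 16.9 to 46.4 CPM (median 31.98). Ly6al was uneven, at 0.814 to 163 CPM (median 63.1).

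The organ difference was compared between the 4 females and the 3 males. With an organ by sex term in edgeR, 0 of 11507 genes passed an adjusted p of 0.05 (0%), while 1094 (9.51%) had an unadjusted p under 0.05, and DESeq2 with the same term called 27. Thbs1, thrombospondin, had the lowest p: its difference was 4.72 in females and 3.26 in males, a term of -1.53 ± 0.23 (adjusted p = 0.211). Loxl4, a crosslinking enzyme, came next, at 2.24 and 1.05. With 4 against 3 animals, smaller differences between the sexes may go undetected.

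Animals differed in ways that both organs shared. For each gene the deviations of the 7 animals were compared between lung and right ventricle, and 169 genes had a standard deviation of at least 0.5 log2 units in both organs. The median correlation over these genes was 0.789, with r above 0.9 in 56 genes and below -0.9 in 0. Some of these correlations rest on few animals. Without the 2 animals farthest from the median in lung, r fell from 0.994 to 0.020 for Hspa1a and from 0.990 to -0.349 for Hspb1. For Dusp1 it changed only from 0.968 to 0.966. With values centred within sex, r was above 0.9 in 57 genes, but fell from 0.997 to 0.249 for LOC100911498. Over 5040 exact permutations, 16 genes passed an adjusted p of 0.05 and 67 (39.6%) had an unadjusted p under 0.05. They included Hspd1, Ifit1, Jun, Phyh, Ccdc92, Jmjd6, Hyal2, Dusp1, Rtel1, Per3, Dbp, Arntl, Nab2, Per1 and Rgs1, of which Jun, Dusp1 and Nab2 are early response genes and Per1, Per3, Dbp and Arntl are clock genes. Of the 16, 2 (Dusp1 among them) also passed by Spearman's rho, and without the 2 animals farthest from the median in lung r was lowest for Rgs1, at 0.564. In the litter 3HH, kept at simulated altitude with 8 animals of both organs, 378 of 560 genes passed. These 560 genes were selected by their spread in that litter, so the count does not repeat the test of the 169. Only 1 of the 16, Arntl, varied enough in 3HH to be tested, and it passed. For the 169 genes the median correlation in 3HH was 0.413, against 0.789 here. Of the 56 genes with r above 0.9 here, 31 had r above 0.5 in 3HH and 6 had r above 0.9, with a median of 0.605.

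The animal 4RARA39 stood apart in both organs. In 4RARA39, 14 genes of at least 5 CPM stood 4 times or more above the highest of the other 6 animals in lung and again in right ventricle, and in no other animal did any gene do so in both organs. Of these, 8 encode chaperones or their partners: Hspa1a, Hsph1, Hspb1, Dnaja1, Dnajb1, Bag3, Stip1 and Ahsa2. The others included Cacybp, Zfand2a, Hmox1, Uspl1 and Ccdc117. Hspa1a, the inducible 70-kilodalton chaperone at chr20:4955668-4959762, stood at 2995 CPM in the lung of 4RARA39 and at 6.02 to 13.4 CPM in the other lungs. In right ventricle it stood at 3735 CPM and at 4.09 to 7.12 CPM in the others. Hsph1, a partner of that chaperone, stood at 3119 CPM against 89.2 to 112 in lung and at 3250.0 against 80.4 to 101 in right ventricle. Hmox1, heme oxygenase, stood at 746 against 43.5 to 89.8 CPM in lung and at 431 against 12.9 to 18.4 CPM in right ventricle. Its 2 libraries came from different batches, and the RNA integrity number was 8.3 in lung, within the range of the others, and 9.6 in right ventricle, the highest of the 7. The right ventricle library of 4RARA39 was the shallowest, at 6172411 counts, had the highest mitochondrial share, 49.5%, and was the highest of the 7 right ventricles for Casq2, Fabp3, Cox7b, Dcn and Xirp2, at 2866, 7860.2, 4164, 1626 and 1331 CPM. The part of depth and RNA quality in these values was not tested. Without this animal the organ difference rose from 0.45 to 0.67 for Hspa1a and from 1.83 to 2.05 for Hmox1. The call of Hspa1a was lost without 4RARA38, 4RARA41 or 4RARA42, at 0.31, 0.42 and 0.40.

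**Figure D5:**
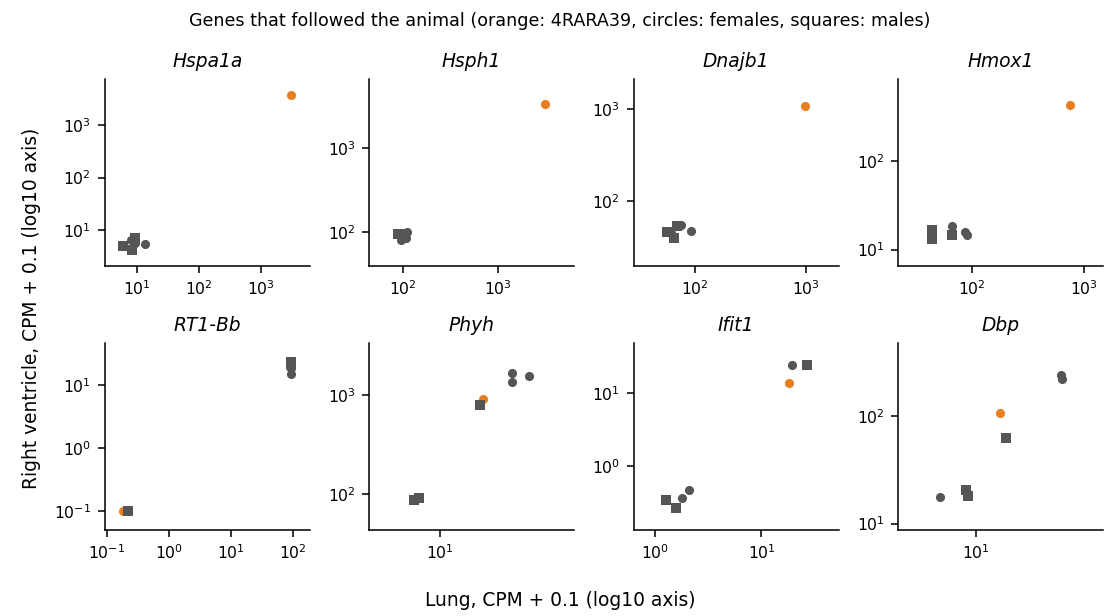
Level of 8 genes in lung (x axis) and right ventricle (y axis) of each of the 7 animals, in CPM on log10 axes with 0.1 CPM added, with females as circles and males as squares and 4RARA39 in orange. In Hspa1a, Hsph1, Dnajb1 and Hmox1 the animal 4RARA39 stands alone at the upper right, in RT1-Bb 2 animals lie at the lower left, and in Phyh, Ifit1 and Dbp the animals that are high in lung are also the high ones in right ventricle.

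Other genes separated the littermates into groups, and no correlation is printed for these, although Ifit1 and Phyh are among the genes that passed above. RT1-Bb, a beta chain of a class II molecule at chr20:4043726-4049367, stood at 89.7 to 93.8 CPM in 5 lungs and at 0.0842 and 0.123 in those of 4RARA39 and 4RARA43. In right ventricle the same animals were at 0 and the others at 14.8 to 23.02 CPM. Its partner chain RT1-Ba was present in all 14 libraries, at 178 to 287 CPM (median 263) in lung. Phyh, a peroxisomal enzyme that breaks down phytanic acid, was lowest in 4RARA43 and 4RARA44, at 6.64 and 7.13 CPM in lung against 18.6 to 39.5 in the others and at 87.8 and 91.9 in right ventricle against 794 to 1671. Ifit1, an interferon-induced gene, was high in 4RARA39, 4RARA41 and 4RARA42 in both organs, at 18.1 to 26.6 CPM in lung against 1.15 to 1.96 in the others and at 13.3 to 23.8 against 0.176 to 0.372 in right ventricle.

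Of 15 measured clock genes, 4 (Dbp, Arntl, Per1 and Per3) followed the animal in both organs by Pearson's r, and none of these 4 passed by Spearman's rho (adjusted p = 0.114 to 0.168, exact permutation). Dbp, an output gene of the clock, ranged from 5.34 to 41.4 CPM in lung and from 17.4 to 238 CPM in right ventricle, with Pearson's r of 0.959 and Spearman's rho of 0.893 over 7 animals (adjusted p = 0.0366 and 0.139, exact permutation over 169 genes), and r was 0.887 without the 2 animals farthest from the median in lung. Arntl, which encodes the activator BMAL1, gave r of 0.956 and rho of 0.929 (adjusted p = 0.0366 and 0.114, exact permutation), and 0.773 without the 2 farthest. Dbp was highest and Arntl lowest in 4RARA40 and 4RARA41, in lung and in right ventricle. The 2 genes are known to cycle in opposite phase. In the 8 pairs of the litter 3HH r was 0.854 for Dbp and 0.9899 for Arntl. Of the 15 clock genes, 7 were higher in right ventricle (46.7%, against 39.9% of all genes) and 0 in lung (against 41.5%). In none of the 15 did the organs separate without overlap, against 58.2% of all genes. The list median of -0.30 became 0.21 with total count scaling.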

How the data were processed

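Poly(A) libraries of lung and right ventricle were made with a KAPA mRNA HyperPrep kit and both organs were run together in 1 flowcell of a HiSeq4000, per the labels' protocols. The submitters' processing notes name FastQC, MultiQC 0.11.5, STAR 2.5, featureCounts 1.5.1 of Subread and edgeR, and the rn6 build; the role and order of the tools are not given in the sources used here. The authors deposited 1 table of raw counts per organ, with a gene symbol and transcript length, and mapping statistics as percent of reads. The lung table held 12650 entries and that of right ventricle 12199, of which 11830 were in both, 798 in lung alone and 348 in right ventricle alone; 22 and 21 entries with a number in place of a symbol (0.201% and 0.156% of counts) were left out. What filter the authors used is not given in the sources used here.

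From these counts the 7 pairs were joined by symbol, filtered with filterByExpr (minimum count 10, minimum total 15, leaving 11507 genes) and scaled by TMM. The fit was edgeR 4.0.16 (R 4.3.3, limma 3.58.1) with the animal as a block: quasi-likelihood F tests, glmTreat against 4-fold, and Benjamini-Hochberg adjustment over all genes. The block rests on the animal names in the labels. Deviations from the organ means correlated between both organs of 1 animal by 0.132 to 0.490 (mean 0.248), and by -0.0316 on average between animals. The deviations of the 7 animals sum to 0 in each organ, so that average is not an independent baseline. The lung of 4RARA42 correlated best with the right ventricle of 4RARA43 and not with its own. CPM are counts per 1000000 of TMM-scaled library size. Isoform ratios (0.5 counts added) and animal effects were tested with exact permutations (scipy 1.17.1). The procedures were tested on simulated data.

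The members and gene lists were chosen with earlier results of these data known. Genes were named by rule: the 15 largest differences in each direction past the 4-fold test with at least 10 CPM, the 15 highest per kilobase in each organ, the highest members of each list (4 in the main direction and 2 in the other), the isoform pairs, and the 10 highest of the equal and of the 1-organ genes. Other genes, among them those of single animals, were named after their values were seen. A few genes that the rule names are not reported here. Alternatives were no replicate block, other scalings, no filter, DESeq2 1.42.0, each animal left out, and library batch. The litters 6RARA (room air, 4 pairs) and 3HH (simulated altitude, 8 pairs) were further alternatives. Fits within a batch were added after seeing the data. Total counts of 6172411 to 21869603 per library set the precision. The other lung of the litter was not used.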

Additional observations from a re-analysis of the deposited data

Results flagged for a closer look

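For each gene with values in the text, and for depth and mapping shares, the highest or lowest of the 7 animals was compared with the others by the gap-to-range ratio of Dixon (critical value 0.568 for 7 values), in each organ. Of 310 such groups, 68 held an animal that stood apart. Chance alone gives about 1 in 20 where values are normally distributed. Some of these genes were named because an animal stood apart, so the share is not comparable with that. The ratio was taken on CPM without logarithms, so genes near 0 CPM can be flagged on very few counts. The animal was 4RARA39 in 36 and 4RARA38 in 18 of them.

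The right ventricle of 4RARA38 held the most RNA of lung epithelium. Highest of the 7 there were Ager, Aqp5, Cdh1, Cldn18, Epcam, Foxa2 and Nkx2-1, at 32.7, 2.32, 2.88, 5.95, 2.79, 0.465 and 1.58 CPM in this order. So were RGD1563692, Scgb1a1, Scnn1g, Sftpc, Slc34a2 and Tmprss2, at 0.372, 26.8, 0.465, 81.9, 9.58 and 0.372 CPM in this order. Gja5 was the lowest there, at 10.9 CPM. In its lung Acta1, Me1 and Pecam1 were the highest, at 10.8, 48.1 and 498 CPM, and Cyp2b1 the lowest, at 173 CPM. The cause was not tested.

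In 4RARA39 both organs stood apart. Highest of the 7 lungs were Akap6, Cftr, Fbn1, Foxj1, Foxp2, Gja1 and Hif1a, at 7.41, 54.02, 359.8, 70.9, 24.5, 226 and 131 CPM in this order. So were Hmox1, Hspa1a, Hsph1, Sox9 and Ttr, at 746, 2995, 3119, 20.6 and 2.95 CPM in this order. Highest of the 7 right ventricles were Akap6, Atp2a2, Casq2, Cox7b, Dcn, Fabp3 and Fbn1, at 476, 14949, 2866, 4164, 1626, 7860.2 and 470.4 CPM in this order. So were Hmox1, Hrc, Hspa1a, Hsph1, Lum, Mdh2 and Mki67, at 431, 1377, 3735, 3250.0, 393, 1778 and 98.2 CPM in this order. So were Mybpc2, Ppargc1a, Sox9, Sparc, Wt1 and Xirp2, at 6.66, 214, 46.2, 5960.1, 62.5 and 1331 CPM in this order. Gapdh and Tmem100 were the lowest there, at 2908 and 11.4 CPM, as were the total count, 6172411, and the share of intergenic reads, 9.28%. Akap6, Fbn1, Hmox1, Hspa1a, Hsph1 and Sox9 appear for both organs.

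The other animals stood apart in single genes. Acta2 was highest in the lung of 4RARA40, at 214 CPM. Abcg1, Alb and Sox10 were highest in the right ventricle of 4RARA40, at 30.7, 4.55 and 10.5 CPM. Fabp4 was highest in the right ventricle of 4RARA41, at 2378 CPM. Myl3 was highest in the lung of 4RARA42, at 3.07 CPM. Pde5a was highest in the lung of 4RARA43, at 176 CPM. Cftr, Gpx2 and Hbb were highest in the right ventricle of 4RARA43, at 1.09, 0.418 and 4006 CPM. Sox10 and Tcf21 were highest in the lung of 4RARA44, at 0.350 and 134 CPM. Slc7a10 was highest in the right ventricle of 4RARA44, at 0.0878 CPM, with 0 in all the others. The share of mitochondrial reads was lowest in the lung of 4RARA41, at 2.12%.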

How the results depend on the processing

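The counts kept their size within 1.5 times under most alternatives. Calls for lung and right ventricle were 4665 and 4472 with no replicate block, with 9073 calls shared with the paired fit, 4849 and 4529 with RLE scaling, 4823 and 4498 with DESeq2, and 4530 and 4389 with library batch as a further term. Leaving out each animal in turn gave 4642 to 4816 and 4379 to 4673 calls, 803 to 847 and 883 to 900 genes over 4-fold, 2243 to 2567 genes with an interval within 0.5 of 0, and 0 to 2 genes whose organ difference differed by sex (1 without 4RARA38, 2 without 4RARA41 and 1 without 4RARA42). Counts outside 1.5 times were the 2869 calls for right ventricle with total count scaling, the 2668 and 2816 calls and the 548 genes over 4-fold in lung within batch 1 (5 libraries), the 393 genes over 4-fold in right ventricle in litter 6RARA, the 27 sex calls of DESeq2, the 378 genes that followed the animal in litter 3HH, and the genes with an interval within 0.5 of 0, at 155, 1041 and 1458 within batches 1, 2 and 3 and 1595 in litter 6RARA. The cause was not tested.

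Directions turned in few of the genes named. With no replicate block Hspa1a was at -0.30. With total count scaling Cpt1a was at 0.19, Sox9 at 0.0172 and Vegfa at 0.0506. Within batch 1 Alb was at -1.30, Cpt1a at 0.22, Hmox1 at -0.43 and Hspa1a at -6.12; within batch 2 Sox9 was at 0.22, and within batch 3 Hspa1a was at -0.0073. In litter 3HH Alb was at -0.79. In litter 6RARA (4 pairs) Alb was at -7.29, Cav1 at -0.31, Cpt1a at 0.0499, Me1 at 0.49, Mki67 at -0.76, Ncf1 at 0.33, Pecam1 at -0.99, Pfkl at -0.0355, Rpl3 at -0.25, Suclg2 at 0.37 and Vegfa at 0.52; Sftpc was at 5.62 there, and 1878 of the 9372 called genes had the other sign. That litter was also kept in room air. Its 4 right ventricles had RNA integrity numbers of 5.8 to 7.4 and held 102 to 829.5 CPM of Sftpc (11704 to 15840 in the lungs). The part of this in the reversals was not tested. With total count scaling the medians of 9 lists crossed 0, fibroblasts and oxygen sensing among them; 10 crossed in litter 6RARA (general endothelium at -0.62, heart transcription factors at 0.20, cell cycle at -0.21) 4 in litter 3HH, and up to 5 under any other setting. Depth limits genes near 0 CPM in 1 organ, whose differences rest on a few counts.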
